A study of Homo sapiens with 23 samples.

Results

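The genes described here are 10 secreted cytokines and chemokines typical of the senescence secretome, the set of inflammatory proteins that cells in permanent growth arrest release. They were taken by name as *IL6*, *IL11*, *LIF*, *IL1A*, *CXCL8*, *CXCL1*, *CXCL2*, *CXCL5*, *CCL2* and *CCL20*. They are 10 of 61806 genes in the table of the first 17 libraries and 10 of 42901 genes in that of 6 deeper libraries.

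RNA depleted of ribosomal RNA was sequenced from A549, an established human lung adenocarcinoma line, after loss of *THUMPD3*, which encodes a tRNA guanosine methyltransferase. In the first libraries an siRNA (siD3 #3, n = 3) was compared with siControl (n = 2), and 2 shRNAs (shD3 #1 and shD3 #4, n = 3 each) were compared with sh1Control and sh4Control (n = 3 each). The deep libraries compared shD3 #1 with sh1Control (n = 3 each). The siRNA was transfected transiently and cells were collected after 5 days, whereas the shRNAs came from doxycycline-inducible lentiviral vectors in puromycin-selected cells collected after 6 days. The methods of the study set treated shRNA samples against untreated ones, and whether sh1Control and sh4Control cells had also been transduced, like the collection day of the deep libraries, is not given in the sources used here. The control libraries are annotated as wild type, and the replicates of a group as biological.

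Senescent and stressed epithelial cells switch on cytokine genes through NF-κB and C/EBPβ, and IL-1α held at the cell surface can start this programme. CXCL1, CXCL2, CXCL5 and CXCL8 carry the ELR motif and draw neutrophils through CXCR2, CCL2 draws monocytes through CCR2, and CCL20 draws lymphocytes and dendritic cells through CCR6. IL-6, IL-11 and LIF signal through the shared receptor chain gp130 to STAT3. Messenger RNAs of this kind are often short-lived because AU-rich elements in their 3′UTRs recruit decay factors such as tristetraprolin.

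The promoter sequences are shown because they are the stretch through which NF-κB is known to act on these genes. RefSeq promoters of 300 bases (250 before and 50 after the start, GRCh38.p14) were found for 8 of the 10 genes, the other 2 being *CCL2* and *LIF*. The motif GGAATTTCC was searched on both strands and was present in 4 of the 8, which were *CXCL8*, *CXCL1*, *CXCL2* and *CXCL5*, against 0.461% of 35116 promoters. The looser motif GGNNTTTCC, which contains the first, was present in 6 of the 8, with *IL6* and *CCL20* added, against 6.26% of promoters. The capitals below mark the match to the looser motif, each window is read on the gene's strand, and a match is a description of the letters and not a measured binding site.
CXCL8, chr4:73740458-73740506, plus strand: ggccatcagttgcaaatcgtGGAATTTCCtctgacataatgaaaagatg
CXCL1, chr4:73869295-73869343, plus strand: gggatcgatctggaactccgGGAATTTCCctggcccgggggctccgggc
CXCL2, chr4:74099244-74099292, minus strand: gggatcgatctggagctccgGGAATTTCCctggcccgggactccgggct
CXCL5, chr4:73998739-73998787, minus strand: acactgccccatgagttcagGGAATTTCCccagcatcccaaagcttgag
IL6, chr7:22727108-22727156, plus strand: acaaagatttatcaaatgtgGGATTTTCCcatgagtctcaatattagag
CCL20, chr2:227813743-227813791, plus strand: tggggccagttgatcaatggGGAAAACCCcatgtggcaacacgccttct

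In these windows *CXCL1* and *CXCL2* had nearly the same letters, and in *CCL20* the match lay on the opposite strand. The match in capitals began 91 bases before the start of *CXCL8*, 90 before *CXCL5*, 78 before *CXCL1* and 77 before *CXCL2*. *CXCL1* and *CXCL2* each held another match to the looser motif, GGGCTTTCC, 53 bases before the start, which is not shown in capitals. The 4 ELR chemokine genes lie within 359 kb of chromosome 4. *CXCL1* and *CXCL2* are 93.5% identical in coding sequence, and *CXCL2* and its neighbour *CXCL3* 94.4%, so reads from these 3 genes could be shared or lost in counting and their levels are less certain than those of the others. The AP-1 motif TGAGTCA was present in *CXCL8*, *IL1A* and *IL11*, against 4.95% of promoters.

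The 3′UTRs are shown for the AU-rich pentamer ATTTA. In the canonical GENCODE transcripts the genes held between 1 copy (*CCL2*) and 11 copies (*CXCL5*), and 8 of 10 held at least 5 copies, against 28.8% of 19527 protein-coding genes. Per length, the density of all 10 was above the median of all genes, 1.5 copies per kb, and ranged from 2.19 (*LIF*) to 14.1 copies per kb (*IL6*). The densest 30-base windows of 4 of them are given, with ATTTA in capitals.
CXCL8: taacctATTTAttATTTAtgtATTTATTTA
CXCL1: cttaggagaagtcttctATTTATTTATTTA
CXCL2: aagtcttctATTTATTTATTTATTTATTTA
IL11: ttccaaagccagatcttATTTATTTATTTA

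Total counts were 9854294 to 22101059 in the first libraries and 27285889 to 59974740 in the deep ones. The targeted gene *THUMPD3* fell without overlap in each comparison, to 51.3% of the control mean in shD3 #1, 31.4% in shD3 #4, 17.1% in siD3 #3 and 49.6% in deep shD3 #1. The epithelial keratins *KRT8* and *KRT18* were abundant in every library, at 19337 counts or more. The leukocyte marker *PTPRC* and the fibroblast marker *DCN* had 0 to 4 counts and 0 or 1 count in each first library. The 8 immune markers summed to 4.31 to 6.71 TMM-normalised cpm (counts scaled to library size) in the shD3 #1 comparison, 4.59 to 6.36 in that of shD3 #4 and 7.17 to 10.9 in the deep one. In the siRNA comparison they summed to 5.82 to 6.37 cpm in siControl and 13.4 to 17.8 in siD3 #3, mostly through *ITGAM*, and the part of this in the results was not tested. Library 3 of siD3 #3 stood apart from the other 2, with a chi-square per gene of 26.3 and 29.9 against them, where those 2 differed by 3.40.

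Levels were compared between the genes per kb of exon. In sh1Control *CXCL5* was the most abundant, at 96.1 ± 5.58 cpm per kb (SD, n = 3). *LIF* (23.9 ± 1.09), *CXCL1* (20.4 ± 0.894), *CXCL2* (9.45 ± 0.444), *IL11* (9.28 ± 0.366), *CCL2* (5.60 ± 0.129) and *CXCL8* (3.73 ± 0.628) followed in that order. *CXCL2* and *IL11* overlapped between libraries, and the other neighbours did not. *CCL20*, *IL1A* and *IL6* were near the limit of detection, at 0.101, 0.0260 and 0.00787 cpm per kb. *CXCL5* was also first in sh4Control, siControl and the deep controls, and *CCL20*, *IL1A* and *IL6* were the last 3 in each of these groups.

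**Figure D1:**
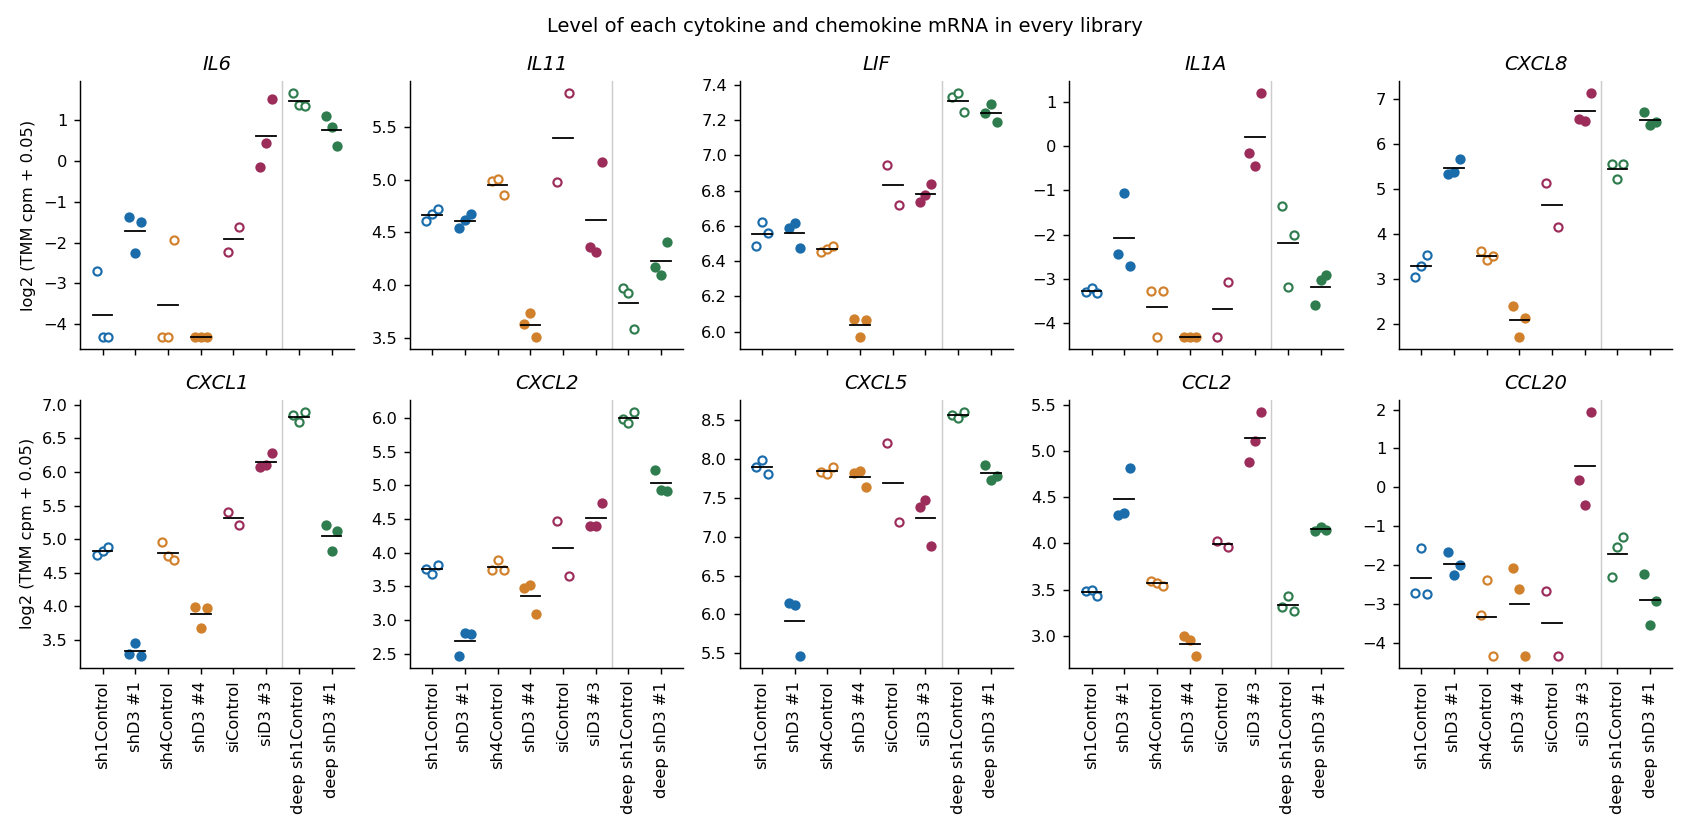
Level of each of the 10 mRNAs in every library, as log2 of TMM cpm plus 0.05, in 8 groups. Open points are control libraries, filled points knockdown libraries and bars the mean of the log2 values, and the grey line sets off the deep libraries. *CXCL8* rises above its controls in shD3 #1, siD3 #3 and deep shD3 #1 and lies below them in shD3 #4.

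In shD3 #1, the neutrophil chemokine *CXCL8* and the monocyte chemokine *CCL2* rose while 3 other neutrophil chemokines, *CXCL1*, *CXCL2* and *CXCL5*, fell. Calls required a Benjamini-Hochberg adjusted p under 0.05 in edgeR's quasi-likelihood test together with a log2 fold change of 0.58 or more in either direction. Of the 10 genes, 7 passed the filter on low counts, of which 2 were called higher and 3 lower, where 14.5% and 14.6% of all genes tested were called higher and lower. *IL6*, *IL1A* and *CCL20* did not pass it. For the same 5 genes no knockdown library overlapped a control library, which held for 62.0% of all genes tested.

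*CXCL8* had 8.25, 9.74 and 11.5 cpm in sh1Control and 40.3, 41.4 and 50.3 cpm in shD3 #1. Every shD3 #1 library lay above every control, with a log2 fold change of 2.15 ± 0.11 (SE, adjusted p = 2.78e-10). Since these are bulk samples, more cells that express a gene and more of its RNA in each cell cannot be told apart, here and below.
*CCL2* had 11.2, 11.2 and 10.7 cpm in sh1Control and 19.7, 20.01 and 28.1 cpm in shD3 #1. The groups did not overlap, one shD3 #1 library was higher than the others, and the log2 fold change was 1.01 ± 0.12 (adjusted p = 3.30e-06).

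*CXCL5*, the most abundant of the set, had 239, 253 and 224 cpm in sh1Control and 71.0, 69.5 and 44.2 cpm in shD3 #1. All 3 knockdown libraries were below the controls, and its log2 fold change was -1.94 ± 0.12 (adjusted p = 2.25e-09).
*CXCL1* had 27.0, 28.2 and 29.5 cpm in sh1Control and 9.71, 11.0 and 9.57 cpm in shD3 #1. It was uniformly low after knockdown, with a log2 fold change of -1.47 ± 0.09 (adjusted p = 1.15e-09).
*CXCL2* had 13.5, 12.8 and 14 cpm in sh1Control and 5.49, 6.97 and 6.92 cpm in shD3 #1. Its groups did not overlap either, with a log2 fold change of -1.06 ± 0.12 (adjusted p = 1.15e-06).

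The gp130 cytokines *LIF* and *IL11* were close to their controls. *LIF* ranged from 89.5 to 98.3 cpm in sh1Control and from 88.8 to 98.1 in shD3 #1 (log2 fold change 0.01 ± 0.06, adjusted p = 0.943). *IL11* ranged from 24.3 to 26.3 cpm in sh1Control and from 23.3 to 25.5 in shD3 #1 (log2 fold change -0.06 ± 0.07, adjusted p = 0.529). *IL6* had 2, 0 and 0 counts in sh1Control and 5, 3 and 3 counts in shD3 #1, a ratio of 7.12 with an exact 95% counting interval of 1.55 to 66.1. *IL1A* had 1 count in each control and 2, 8 and 1 counts in shD3 #1, and *CCL20* had 9 counts in all in either group. Counting intervals cover counting error only and not the spread between cultures.

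The deep libraries held the same pair of groups at higher depth, in a table counted separately. Whether they came from the same cultures as the first libraries is not given in the sources used here. *CXCL8* and *CCL2* also rose here, *CXCL1*, *CXCL2* and *CXCL5* also fell, and *IL6* was now measurable and fell. Mean *IL6* was 2.72 cpm in deep sh1Control against 0.0346 in first sh1Control, and these values are already scaled to library size. Control *CXCL1* (113 against 28.3 cpm) and *CXCL2* (64.2 against 13.5) were also higher, while *CCL2* (10.1 against 11.0) and *IL11* (14.3 against 25.3) were lower. The cause was not tested. Of the 10 genes, 8 passed the filter, of which 2 were called higher and 4 lower, where 15.0% and 14.1% of all genes tested were called. The groups did not overlap for 7 genes, which held for 67.1% of all genes tested.

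*CXCL8* had 46.7, 37.2 and 47.0 cpm in deep sh1Control against 105, 85.0 and 90.1 cpm in deep shD3 #1 (log2 fold change 1.10 ± 0.09, adjusted p = 5.71e-08). The size of this rise, 2.14-fold, compares with 4.43-fold in the first libraries, whose controls were lower, at 9.85 ± 1.65 cpm against 43.6 ± 5.55 (SD, n = 3 each), and the difference between the tables was not tested.
*CCL2* had 9.89, 10.7 and 9.55 cpm in deep sh1Control against 17.5, 18.0 and 17.7 cpm in deep shD3 #1, a log2 fold change of 0.82 ± 0.07 (adjusted p = 1.47e-07). Its libraries were tightly grouped on both sides.

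*CXCL1* had 114, 107 and 119 cpm in deep sh1Control against 37.0, 28.4 and 34.6 cpm in deep shD3 #1, the steepest fall of the set there (log2 fold change -1.76 ± 0.08, adjusted p = 9.58e-11).
*CXCL2* had 63.5, 61.0 and 68.1 cpm in deep sh1Control against 37.6, 30.6 and 30.1 cpm in deep shD3 #1 (log2 fold change -0.97 ± 0.08, adjusted p = 4.63e-08). *CXCL5* had 378, 368 and 389 cpm in deep sh1Control against 243, 212 and 220 cpm in deep shD3 #1 (log2 fold change -0.75 ± 0.05, adjusted p = 9.88e-09). In each of these genes the lowest control was above the highest knockdown library.

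*IL6*, which drives acute-phase responses, had 3.11, 2.56 and 2.49 cpm in deep sh1Control (183, 129 and 138 counts) and 2.09, 1.72 and 1.25 cpm in deep shD3 #1 (64, 47 and 45 counts). The groups did not overlap and the log2 fold change was -0.71 ± 0.19 (adjusted p = 0.00505). The call was lost without library 3 of deep shD3 #1, at -0.51 (adjusted p = 0.0309), under the fold threshold. In the first libraries the few *IL6* counts went the other way, and the opposite directions were not tested against each other.
*IL11* had 15.7, 15.1 and 12 cpm in deep sh1Control against 18.0, 17.1 and 21.2 cpm in deep shD3 #1. Its groups did not overlap, but its log2 fold change of 0.40 ± 0.10 was under the fold threshold (adjusted p = 0.00341). *LIF* differed by -0.07 ± 0.04 on the log2 scale (adjusted p = 0.178). *IL1A* and *CCL20* did not pass the filter. *IL1A* had 34 counts in all in deep sh1Control against 6 in deep shD3 #1, a ratio of 0.309 with an exact 95% counting interval of 0.106 to 0.744. *CCL20* had 44 and 9 counts, a ratio of 0.358 with a counting interval of 0.154 to 0.743, and edgeR called it lower when every gene with a count was tested (adjusted p = 0.0477).

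In shD3 #4, which left less *THUMPD3* mRNA than shD3 #1, no member rose past the thresholds. *CXCL8*, *CCL2*, *CXCL1* and *IL11* fell, so that *CXCL8* and *CCL2* moved opposite to their direction in shD3 #1. Of 7 genes that passed the filter, 0 were called higher and 4 lower, where 8.00% and 4.49% of all genes tested were called higher and lower. The groups did not overlap for 6 of the 7, in each case with the knockdown lower, against 49.4% of all genes tested in either direction. The median log2 fold change of the 7 was -0.66, against 0.01 over all genes tested. At an unadjusted p under 0.05 edgeR gave 0 higher and 6 lower of the 7, where 7928 of all 16493 genes tested passed that cutoff in either direction. DESeq2 called 0 higher and 4 lower.

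*CXCL8* had 12.2, 10.6 and 11.4 cpm in sh4Control and 5.25, 3.21 and 4.30 cpm in shD3 #4 (log2 fold change -1.40 ± 0.13, adjusted p = 5.04e-09). *IL11* had 31.6, 32.0 and 28.9 cpm in sh4Control and 12.3, 13.3 and 11.3 cpm in shD3 #4 (log2 fold change -1.33 ± 0.08, adjusted p = 2.27e-12). For each of them every knockdown library was below every control.
*CXCL1* had 31.0, 26.8 and 25.8 cpm in sh4Control and 15.9, 12.7 and 15.7 cpm in shD3 #4 (log2 fold change -0.91 ± 0.09, adjusted p = 1.25e-08). *CCL2* had 12, 11.9 and 11.6 cpm in sh4Control and 7.94, 7.68 and 6.83 cpm in shD3 #4 (log2 fold change -0.66 ± 0.10, adjusted p = 1.09e-05). The *CCL2* change was just past the fold threshold and was not called when the test was made against that threshold itself.

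*LIF* had 87.4, 88.6 and 89.4 cpm in sh4Control and 67.3, 62.6 and 66.9 cpm in shD3 #4. These groups did not overlap and the adjusted p was 4.32e-06, but the log2 fold change, -0.43 ± 0.06, was under the threshold. *CXCL2* was similar, at 13.3, 14.7 and 13.4 cpm against 11.1, 11.5 and 8.43 cpm (log2 fold change -0.42 ± 0.11, adjusted p = 0.00238). *CXCL5* overlapped its controls, at 228, 224 and 239 cpm against 225, 231 and 199 cpm (log2 fold change -0.08 ± 0.07, adjusted p = 0.372). *IL6* and *IL1A* had 0 counts in each shD3 #4 library and 4 and 2 counts in all in sh4Control, and a count of 0 allows up to 3 counts.

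In siD3 #3, which left the least *THUMPD3* mRNA, *CXCL8*, *CCL2* and *CXCL1* rose. They were 3 of the 7 genes with at least 10 counts in every library, where 12.5% of all genes tested were called higher and 9.42% lower. *IL1A*, *CCL20* and *IL6* were also called higher, but they passed the filter on low counts only through the siD3 #3 libraries, so that their calls are a description and the total of 6 called higher is not read against the share of all genes. Of the 10 genes 0 were called lower by edgeR (1 at an unadjusted p under 0.05, and 0 called by DESeq2). Among the 7 genes the groups did not overlap for 3, where 60.0% of all genes tested did not. Without siControl library 1 the number called of all 10 was 4 and without siControl library 2 it was also 4, since *IL1A*, *CCL20* and *IL6* lost their calls in either case. It was 7 without siD3 #3 library 3, with *IL11* called lower, and 3 under a test against the fold threshold.

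*IL1A*, the alarm cytokine of the programme, had 0 and 1 counts in siControl and 18, 12 and 45 counts in siD3 #3 (0.849, 0.685 and 2.24 cpm). The ratio was 41.8, with an exact 95% counting interval of 7.28 to 1674, and the adjusted p was 0.0108. *CCL20* had 2 and 0 counts in siControl and 23, 12 and 76 counts in siD3 #3 (1.09, 0.685 and 3.78 cpm). The ratio was 31.0, with a counting interval of 8.37 to 259, and the adjusted p was 0.0216. *IL6* had 3 and 4 counts in siControl and 18, 23 and 57 counts in siD3 #3 (0.849, 1.31 and 2.84 cpm). The ratio was 7.81, with a counting interval of 3.65 to 19.9, and the adjusted p was 0.0176. Since these genes entered the test through the siD3 #3 libraries, their p-values are a description too. For all 3 genes library 3 of siD3 #3 was the highest, and without it the adjusted p-values were 0.00213, 0.00336 and 0.00619. Without siControl library 1 these were 0.0924, 0.0950 and 0.131, and without siControl library 2 they were 0.0507, 0.124 and 0.0803.

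*CXCL8* had 34.9 and 17.7 cpm in siControl and 93.2, 90.3 and 139 cpm in siD3 #3. Its siControl libraries lay far apart, but every siD3 #3 library was higher than both, with a log2 fold change of 2.02 ± 0.30 (adjusted p = 0.00214). *CCL2* had 16.2 and 15.5 cpm in siControl and 29.5, 34.5 and 42.9 cpm in siD3 #3 (log2 fold change 1.17 ± 0.17, adjusted p = 0.00163). *CXCL1* had 42.4 and 37.0 cpm in siControl and 67.0, 68.9 and 77.9 cpm in siD3 #3 (log2 fold change 0.84 ± 0.11, adjusted p = 0.00105). These 3 genes were called with any 1 library left out.

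The remaining 4 genes overlapped between the groups, and the siControl libraries lay far apart for *CXCL5*, *CXCL2* and *IL11*. *CXCL5* had 296 and 146 cpm in siControl and 166, 177 and 118 cpm in siD3 #3 (log2 fold change -0.52 ± 0.28, adjusted p = 0.196). It was called lower without siControl library 2 (-0.95, adjusted p = 0.0317) and stood at 0.07 without siControl library 1. *CXCL2* had 22.2 and 12.5 cpm in siControl and 21.1, 21.0 and 26.7 cpm in siD3 #3 (log2 fold change 0.39 ± 0.23, adjusted p = 0.233). It was called higher without siControl library 1 (0.87, adjusted p = 0.0329). *IL11* had 31.5 and 56.5 cpm in siControl and 20.5, 19.9 and 35.9 cpm in siD3 #3 (log2 fold change -0.78 ± 0.31, adjusted p = 0.0872). *LIF* had 123 and 105 cpm in siControl and 107, 110 and 114 cpm in siD3 #3 (log2 fold change -0.06 ± 0.10, adjusted p = 0.697).

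**Figure D2:**
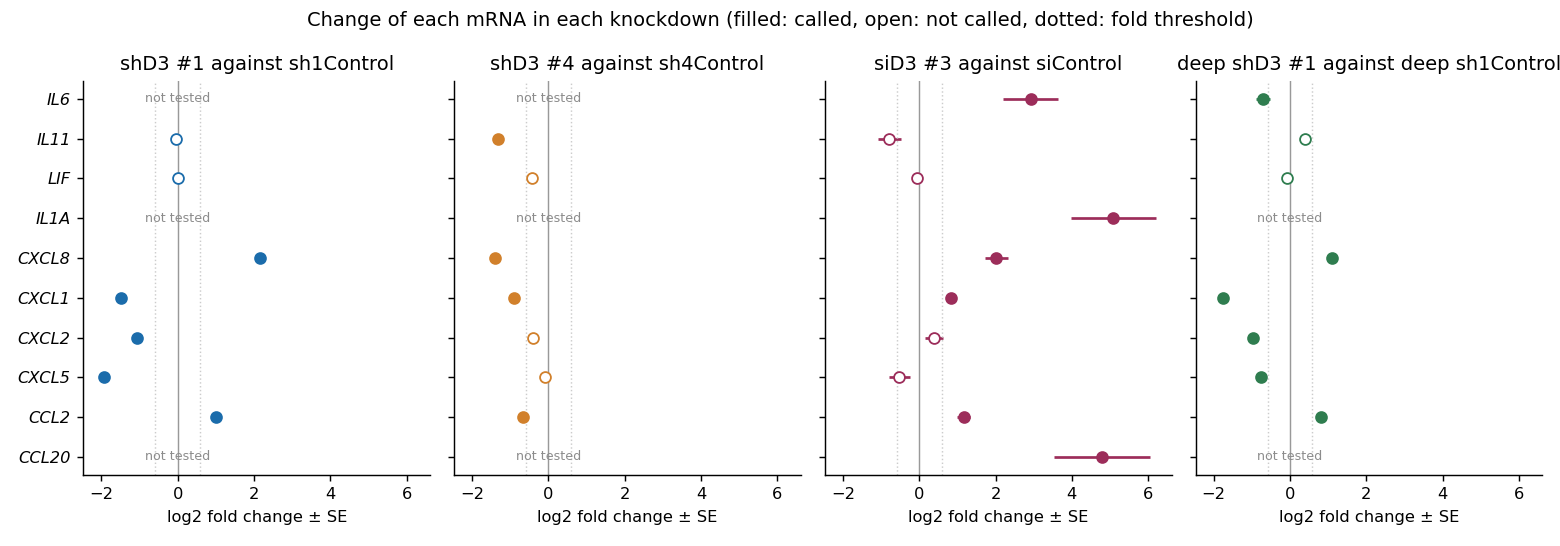
Log2 fold change with its standard error for the 10 mRNAs in the 4 comparisons. Filled points were called, open points were not, dotted lines mark the fold threshold of 0.58 on either side, and genes under the filter on low counts are written as not tested. *CXCL8* lies at 2.15, -1.40, 2.02 and 1.10 from left to right, and *CXCL5* at -1.94, -0.08, -0.52 and -0.75.

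The differences between knockdowns were tested in 1 model of the 17 first libraries, as differences of log2 fold changes. Between shD3 #1 and shD3 #4, 5 of the 10 genes differed, where 25.9% of all genes tested did. The numbers were 5 between siD3 #3 and shD3 #1 (25.4% of all genes) and 6 between siD3 #3 and shD3 #4 (17.8% of all genes). The 5 include *CCL20* and the 6 include *IL6* and *IL1A*, which passed the filter only through the siD3 #3 libraries. These 2 totals are therefore not read against the shares. Among the 7 genes with at least 10 counts in every library, 6, 3 and 4 differed in the same order of comparisons. Of 13525 genes tested under that filter, 3912, 3771 and 2730 did. siD3 #3 differs from the shRNAs in delivery and in collection day, which cannot be told apart, and the 3 knockdowns also left different amounts of *THUMPD3* mRNA, whose part in these differences was not tested.

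*CXCL8* stood 3.55 ± 0.33 higher on the log2 scale in shD3 #1 than in shD3 #4 (adjusted p = 4.53e-08) and 3.43 ± 0.33 higher in siD3 #3 than in shD3 #4 (adjusted p = 7.86e-08). *CCL2* followed the same order, with differences of 1.67 ± 0.20 (adjusted p = 1.18e-06) and 1.84 ± 0.20 (adjusted p = 5.99e-07). Between siD3 #3 and shD3 #1 neither passed the test, with differences of -0.12 ± 0.29 for *CXCL8* (adjusted p = 0.786) and 0.17 ± 0.20 for *CCL2* (adjusted p = 0.531). These 2 chemokines therefore had opposite signs in shD3 #4 and in the other knockdowns.

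*CXCL1* and *CXCL2* divided the knockdowns differently. *CXCL1* was higher in siD3 #3 than in shD3 #1 by 2.33 ± 0.15 (adjusted p = 5.01e-10) and than in shD3 #4 by 1.77 ± 0.14 (adjusted p = 5.45e-09). *CXCL2* was higher in siD3 #3 than in shD3 #1 by 1.46 ± 0.25 (adjusted p = 9.76e-05) and than in shD3 #4 by 0.81 ± 0.24 (adjusted p = 0.0134), a call lost without siControl library 2 (0.46, adjusted p = 0.115). The shRNAs differed for *CXCL2* by -0.65 ± 0.24 (adjusted p = 0.0394), a call kept in 10 of the 17 fits that left out 1 library. It was lost without library 1 or 3 of sh1Control, library 1 of shD3 #1, library 1 or 3 of sh4Control, or library 1 or 2 of shD3 #4. They differed for *CXCL1* by -0.57 ± 0.15, under the fold threshold (adjusted p = 0.00414).

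*CXCL5* was lower in shD3 #1 than in shD3 #4 by a log2 difference of -1.87 ± 0.27 (adjusted p = 1.42e-05). siD3 #3 stood above shD3 #1 by 1.44 ± 0.29 (adjusted p = 0.00054) and did not differ past the threshold from shD3 #4 (-0.43 ± 0.28, adjusted p = 0.285). *IL11* was higher in shD3 #1 than in shD3 #4 by 1.27 ± 0.27 (adjusted p = 0.000804) and lower in siD3 #3 than in shD3 #1 by -0.71 ± 0.27 (adjusted p = 0.048). The *IL11* call between siD3 #3 and shD3 #1 was kept in 2 of the 17 fits that left out 1 library, those without siControl library 1 or siD3 #3 library 3, and DESeq2 did not make it. *LIF* differed between shD3 #1 and shD3 #4 by 0.43 ± 0.10, under the fold threshold (adjusted p = 0.00138). For *IL6*, *IL1A* and *CCL20* the differences rest on groups with 0 to 5 counts a library, the fitted sizes depend on how counts of 0 are handled, and the counts above are the better description.

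**Figure D3:**
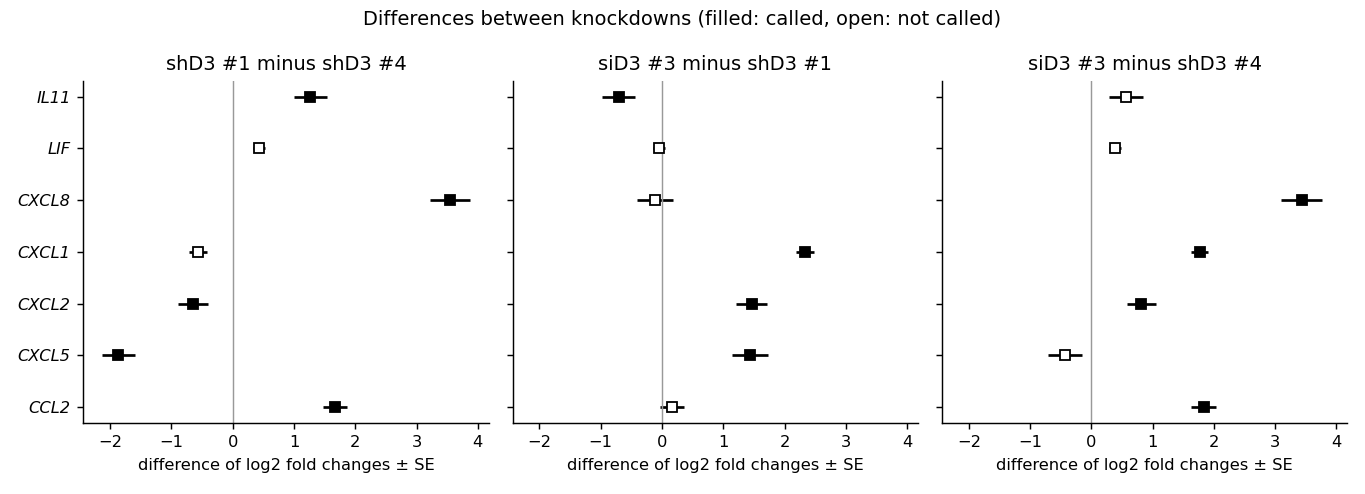
Difference of log2 fold changes between knockdowns, with its standard error, for the 7 mRNAs measured in all 3 first comparisons. Filled squares were called and open squares were not. *CXCL8* lies at 3.55, -0.12 and 3.43, and *CXCL1* at -0.57, 2.33 and 1.77, from left to right.

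Set side by side over the libraries, *CXCL8* and *CCL2* were lowest in the 3 shD3 #4 libraries and highest in the 3 siD3 #3 libraries. The genes whose levels most resembled those of the 3 most abundant members over the 17 first libraries were, by Pearson's r of log2 cpm, *ARV1* and *MYO15B* for *CXCL5* (0.97 each), *PFKP* and *EPB41L4B* for *LIF* (0.95 each), and *PDGFA* (0.98) and *RAI14* (0.97) for *CXCL1*. These are descriptions across libraries that share groups, so that differences between groups dominate them.

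**Figure D4:**
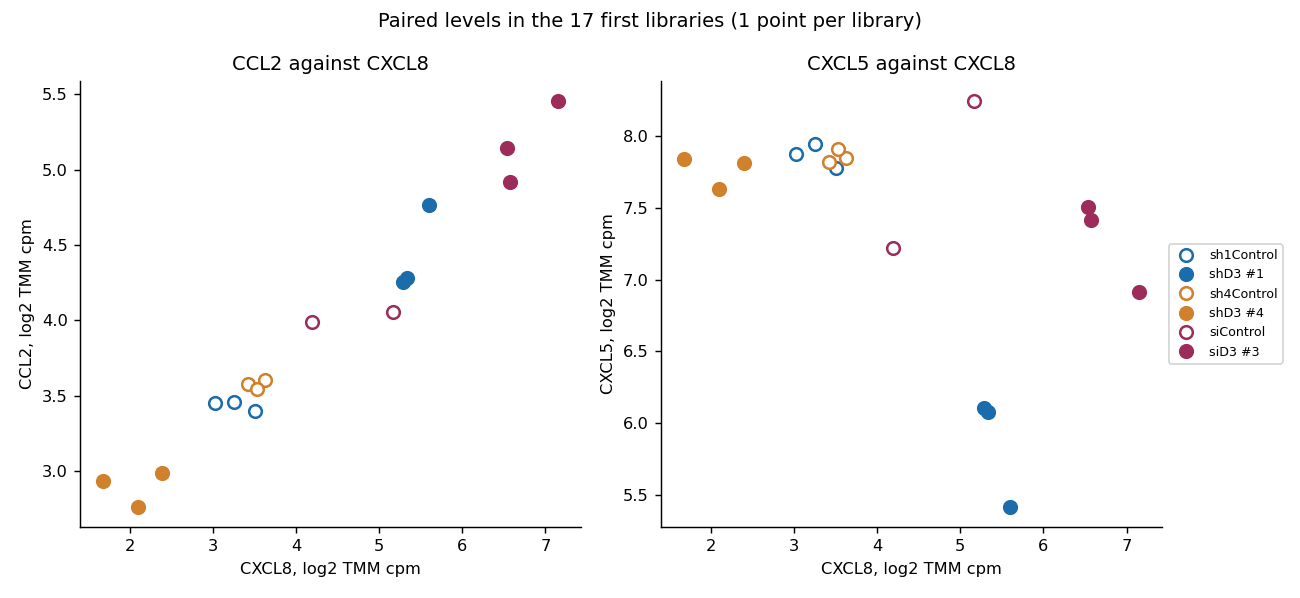
Levels of *CCL2* and *CXCL5* against *CXCL8* as log2 TMM cpm, 1 point for each of the 17 first libraries, with open points for controls. *CCL2* is lowest where *CXCL8* is lowest, in shD3 #4, while *CXCL5* is lowest in shD3 #1.

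Among 35 other cytokines and chemokines, 13 were tested in shD3 #1, of which 7 were called higher and 1 lower (median log2 fold change 0.77, against -0.01 over all genes). In shD3 #4 it was 3 higher and 1 lower of 13 (median 0.08, against 0.01), in siD3 #3 12 higher and 0 lower of 18 (median 1.32, against 0.03) and in deep shD3 #1 4 higher and 2 lower of 14 (median 0.18, against -0.02). In siD3 #3, 6 of the 18 (*CCL5*, *CCL28*, *IL1B*, *IL16*, *IL23A* and *IL33*) had under 10 counts in each control and passed the filter through the knockdown libraries, so that count and median are a description. Of the 12 with at least 10 counts in every library, 6 were called higher and 0 lower (median 0.87). *IL33* passed the filter in shD3 #4 in the same way. Of the 12 genes with at least 10 counts in every library of that comparison, 2 were called higher and 1 lower (median 0.06). In deep shD3 #1 *CCL28*, called higher, passed the filter through the knockdown libraries, and *IL1B*, called lower, through the controls. Both calls are a description. Of the 12 genes with at least 10 counts in every deep library, 3 were called higher and 1 lower (median 0.18). Over all genes tested, 14.5% were called higher and 14.6% lower in shD3 #1, 8.00% and 4.49% in shD3 #4, 12.5% and 9.42% in siD3 #3, and 15.0% and 14.1% in deep shD3 #1. For the 0 lower in siD3 #3, edgeR gave 1 at an unadjusted p under 0.05 and DESeq2 called 0. *CSF1*, the macrophage colony-stimulating factor, was called higher in all 3 first knockdowns, at 0.95 ± 0.07, 0.63 ± 0.08 and 1.36 ± 0.18 on the log2 scale in shD3 #1, shD3 #4 and siD3 #3, and stood at 0.36 ± 0.05 in deep shD3 #1, under the fold threshold. *IL32*, an inflammatory cytokine of epithelial cells, went the way of *CXCL8*, at 1.23 ± 0.16, -1.84 ± 0.20, 2.24 ± 0.41 and 2.08 ± 0.18 in the same order. *CXCL3*, the near-copy of *CXCL2*, was called lower in shD3 #1 (-0.73 ± 0.13) and deep shD3 #1 (-0.77 ± 0.10), and was at -0.52 ± 0.12 in shD3 #4 and -0.16 ± 0.21 in siD3 #3, where it was not called. *TNFSF15*, a ligand of the TNF family, rose in shD3 #1 (2.46 ± 0.07), shD3 #4 (1.08 ± 0.11) and deep shD3 #1 (4.27 ± 0.11). It was not called in siD3 #3, with 370 and 138 counts in siControl and 868, 671 and 173 after knockdown. In siD3 #3, *IL16* had 0 counts in both controls and 15, 14 and 17 after knockdown. That is 8.55-fold higher over the group if the controls are set at 3 counts in all, without the counting error of the knockdown. *IL33*, an alarm cytokine, rose in shD3 #4 from 0.147 to 1.06 cpm and in siD3 #3 from 0.220 to 2.17 cpm. *IL1B*, the secreted partner of *IL1A*, rose in siD3 #3 from 0.205 to 1.83 cpm and fell in deep shD3 #1 from 0.447 to 0.203 cpm.

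Of a list of 15 receptors, decoys and related genes, not all of which bind the 10 members, 8 were tested in each comparison. The numbers called higher and lower were 3 and 1 in shD3 #1 (median 0.19), 6 and 0 in shD3 #4 (median 0.76), 2 and 0 in siD3 #3 (median 0.39), and 3 and 1 in deep shD3 #1 (median 0.30). The shares over all genes tested were 14.5% and 14.6%, 8.00% and 4.49%, 12.5% and 9.42%, and 15.0% and 14.1% in the same order. The medians of all genes were -0.01, 0.01, 0.03 and -0.02, here and for the lists below. Where 0 were called lower, edgeR gave 0 in shD3 #4 and 1 in siD3 #3 at an unadjusted p under 0.05, and DESeq2 called 0 in both. *IL6R*, the ligand-binding chain for IL-6, was called higher in all 3 first knockdowns, at 1.37 ± 0.09, 0.94 ± 0.09 and 1.37 ± 0.29, and was at 0.45 ± 0.08 in deep shD3 #1. *IL1RAP*, the shared chain of the IL-1 receptor, rose in shD3 #1 (2.30 ± 0.08), siD3 #3 (1.18 ± 0.25) and deep shD3 #1 (1.4 ± 0.05) and was at 0.11 ± 0.09 in shD3 #4. *IL1R1*, the signalling receptor for IL-1α, fell in shD3 #1 (-1.01 ± 0.07) and rose in shD3 #4 (0.61 ± 0.07), while the decoy *IL1R2* rose in both (1.38 ± 0.17 and 1.21 ± 0.20) and in deep shD3 #1 (2.31 ± 0.26). The scavenger receptor *ACKR3* rose in shD3 #4 (1.26 ± 0.19) and fell in deep shD3 #1 (-1.11 ± 0.38). In the deep libraries it had 24, 26 and 30 counts in controls and 6, 9 and 6 after knockdown. It passed the filter there through the controls, so that this fall is a description. Of the 7 genes of the list with at least 10 counts in every deep library, 3 were called higher and 0 lower (median 0.44). *CXCR1* had 0 counts in each of the 23 libraries, which allows up to 3 counts a library. *CXCR2*, *CCR2* and *CCR6* had at most 6, 1 and 10 counts, so that A549 cells held little message for the receptors of the chemokines described here.

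The 17 NF-κB subunits and kinases were all tested. Of these, 4 were called higher and 1 lower in shD3 #1 (median 0.22), 0 and 0 in shD3 #4 (median -0.11), 2 and 0 in siD3 #3 (median 0.22), and 3 and 1 in deep shD3 #1 (median 0.16). The shares over all genes tested were 14.5% and 14.6%, 8.00% and 4.49%, 12.5% and 9.42%, and 15.0% and 14.1% in the same order. *RELB*, a subunit of the non-canonical pathway, rose in shD3 #1 (1.15 ± 0.11), siD3 #3 (1.27 ± 0.31) and deep shD3 #1 (0.84 ± 0.08), and was at -0.42 ± 0.14 in shD3 #4. *IKBKG*, the scaffold of the IκB kinase, rose in shD3 #1 (1.27 ± 0.09) and deep shD3 #1 (1.66 ± 0.06). *IRAK1*, a kinase below the IL-1 receptor, fell in shD3 #1 (-1.10 ± 0.07) and deep shD3 #1 (-0.73 ± 0.05).

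Of the 15 feedback inhibitors and targets of NF-κB, 13 were tested in shD3 #1 (2 higher, 2 lower, median -0.13), 12 in shD3 #4 (0 and 0, median -0.21), 14 in siD3 #3 (8 higher, 0 lower, median 0.93) and 14 in deep shD3 #1 (2 higher, 0 lower, median 0.00). The shares over all genes tested, higher and lower, were 14.5% and 14.6%, 8.00% and 4.49%, 12.5% and 9.42%, and 15.0% and 14.1% in the same order. *TNFAIP3*, which encodes the inhibitor A20, rose in shD3 #1 (1.19 ± 0.13), siD3 #3 (2.58 ± 0.40) and deep shD3 #1 (0.82 ± 0.10) and was at 0.11 ± 0.18 in shD3 #4. *ICAM1*, an adhesion molecule, rose in siD3 #3 from 0.480 to 7.30 cpm and in deep shD3 #1 from 0.527 to 0.956 cpm. In siD3 #3 *ICAM1* (10 and 6 counts in siControl) and *TNIP3* (7 and 4) passed the filter through the knockdown libraries. Their values there are a description. Of the 12 genes of the list with at least 10 counts in every library of that comparison, 8 were called higher and 0 lower (median 0.98). *TNIP1*, a partner of A20, fell in shD3 #1 (-1.18 ± 0.08) and rose in siD3 #3 (1.15 ± 0.13). In shD3 #4, where *CXCL8* and *CCL2* had fallen, edgeR and DESeq2 both called 0 genes of these 2 lists. At an unadjusted p under 0.05 edgeR gave 2 higher and 8 lower of the first and 1 higher and 7 lower of the second. Of all 16493 genes tested there, 7928 passed that cutoff in either direction.

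Genes of the STAT3 arm and the acute phase respond to IL-6 and its relatives. In shD3 #1, *PIM1*, *CEBPD*, *FGA*, *FGB*, *FGG* and *LCN2* were called lower, and in shD3 #4 *FGA*, *FGB*, *FGG* and *LCN2* were called higher, where 14.6% and 8.00% of all genes tested were called in those directions. In siD3 #3 12.5% of all genes tested were called higher, and in deep shD3 #1 14.1% lower. Of 16, 11 were tested in shD3 #1 (0 higher, 6 lower, median -0.60) and 11 in shD3 #4 (4 higher, 0 lower, median 0.28), 13 in siD3 #3 (4 higher, 0 lower, median 0.38) and 12 in deep shD3 #1 (0 higher, 4 lower, median -0.17). DESeq2 called the same numbers, and in the directions with 0 calls edgeR gave 1, 1, 0 and 3 genes at an unadjusted p under 0.05. *FGB*, a fibrinogen chain, fell in shD3 #1 from 138 to 12 cpm (-3.52 ± 0.08) and rose in shD3 #4 from 125 to 518 cpm (2.05 ± 0.09). *FGG*, another fibrinogen chain, changed by -2.92 ± 0.11 and 2.36 ± 0.08. The difference between the shRNAs was -5.57 ± 0.71 for *FGB* (adjusted p = 3.28e-06) and -3.78 ± 0.71 for *LCN2* (adjusted p = 0.000251). Neither fibrinogen was called in deep shD3 #1, whose controls had 4.43 cpm of *FGB*. *LCN2*, an iron-binding acute-phase protein, fell in shD3 #1 (-2.0 ± 0.17) and deep shD3 #1 (-1.11 ± 0.11) and rose in shD3 #4 (1.77 ± 0.11) and siD3 #3 (2.75 ± 0.78). Library 3 of siD3 #3 stood apart here too, with 4.68 cpm of *FGB* against 58.4 and 59.7, and 9.21 cpm of *LCN2* against 52.3 and 57.1. *SAA1*, serum amyloid A, had 0 counts in siControl and 14, 15 and 23 in siD3 #3, and its reads may be shared with *SAA2*. Its rise was 9.67-fold over the group if the controls are set at 3 counts in all, without the counting error of the knockdown. *SAA1* and *SAA2* passed the filter in siD3 #3 through the knockdown libraries alone, and of the 11 genes of the list with at least 10 counts in every library 2 were called higher.

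Of 16 regulators of the senescence secretome, 13 were tested in shD3 #1 (3 higher, 1 lower, median 0.22) and 14 in each of shD3 #4 (1 and 0, median -0.06), siD3 #3 (3 and 1, median 0.07) and deep shD3 #1 (3 and 1, median 0.14). The shares over all genes tested were 14.5% and 14.6%, 8.00% and 4.49%, 12.5% and 9.42%, and 15.0% and 14.1% in the same order. *TLR4*, an innate receptor, was called higher in every comparison, at 2.94 ± 0.09, 0.65 ± 0.12, 1.48 ± 0.13 and 2.25 ± 0.06. *CDKN1A*, the p21 cell cycle inhibitor, rose in shD3 #1 (2.07 ± 0.08), siD3 #3 (3.51 ± 0.15) and deep shD3 #1 (1.24 ± 0.05), and was at 0.20 ± 0.06 in shD3 #4, under the fold threshold. *CEBPB*, a transcription factor of the programme, fell in shD3 #1 (-0.65 ± 0.07), *CGAS*, a DNA sensor, fell in siD3 #3 (-0.80 ± 0.25), and *STING1*, which relays its signal, fell in deep shD3 #1 (-0.91 ± 0.15). *CDKN2A* had 0 counts in every library.

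Of 14 genes of mRNA decay and AU-rich element binding, 14 were tested in each first comparison and 13 in the deep one. The numbers called higher and lower were 2 and 1 in shD3 #1 (median -0.10), 1 and 0 in shD3 #4 (median -0.06), 1 and 1 in siD3 #3 (median -0.08), and 1 and 1 in deep shD3 #1 (median -0.15). The shares over all genes tested were 14.5% and 14.6%, 8.00% and 4.49%, 12.5% and 9.42%, and 15.0% and 14.1% in the same order. *ZFP36*, which encodes tristetraprolin, rose in shD3 #1 (0.92 ± 0.09) and is listed at 0 in the deep table. Its relatives *ZFP36L1* and *ZFP36L2* rose in shD3 #1 (0.83 ± 0.06) and in shD3 #4 (0.63 ± 0.08). *RC3H2* fell in shD3 #1 (-0.63 ± 0.06). *ZC3H12A*, an endonuclease that cuts *IL6* mRNA, rose in siD3 #3 (0.90 ± 0.17), where *KHSRP*, a decay factor, fell (-0.63 ± 0.11). *HNRNPD* fell in deep shD3 #1 (-0.78 ± 0.05), where *ZFP36L1* rose (0.67 ± 0.05).

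**Figure D5:**
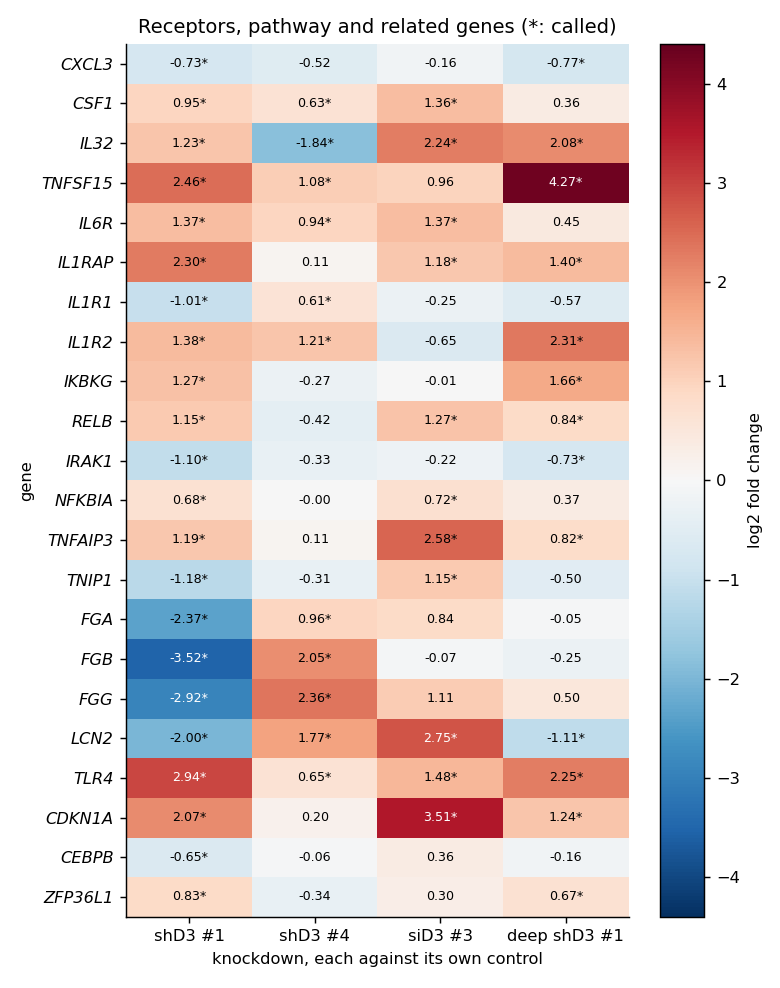
Log2 fold changes of 22 receptor, pathway and related genes in the 4 comparisons, on a colour scale from blue (lower) to red (higher), with an asterisk where the gene was called. *FGB* is at -3.52 in shD3 #1 and 2.05 in shD3 #4, and *TLR4* is red throughout, from 0.65 to 2.94.

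The other marker lists were counted in the same way, beside the same shares of all genes. Of 9 markers of A549 and lung epithelium, all tested, 1 was called higher and 1 lower in shD3 #1 (*EPCAM* at 1.00 ± 0.12 and *AKR1C2* at -1.17 ± 0.05), 1 lower in shD3 #4 (*KRT7*, -0.83 ± 0.07), 1 higher in siD3 #3 (*TXNRD1*, 0.70 ± 0.13), and 3 higher and 1 lower in deep shD3 #1. Of 6 fibroblast markers, *LUM* was called higher in each of the 4 comparisons, from 1.79 to 2.88 cpm in shD3 #1 and from 0.302 to 1.70 cpm in siD3 #3, while *DCN* had 0 or 1 count in each library. The list summed to 7.65 to 9.93 cpm in sh1Control and 11.8 to 13.3 in shD3 #1, 6.60 to 9.94 in sh4Control and 11.1 to 14.2 in shD3 #4, 4.74 to 6.72 in siControl and 8.68 to 11.0 in siD3 #3, and 10.8 to 11.7 in deep sh1Control against 28.3 to 30.7 in deep shD3 #1. The 4 endothelial markers summed to at most 2.17 cpm in any library. Of the 8 immune markers, *CD79A* rose in shD3 #1 (3.48 ± 0.50), siD3 #3 (2.99 ± 0.48) and deep shD3 #1 (1.46 ± 0.30), and *ITGAM* rose in siD3 #3 (1.74 ± 0.28) and fell in deep shD3 #1 (-1.22 ± 0.17). *CD14* fell in shD3 #1 (-0.79 ± 0.19), and *LYZ* rose in deep shD3 #1 from 0.0363 to 0.510 cpm. In shD3 #4 edgeR called 0 immune markers, with 0 at an unadjusted p under 0.05 and 0 called by DESeq2. *COL1A1* rose in shD3 #1 (0.74 ± 0.15) and deep shD3 #1 (1.72 ± 0.07), where *THY1* fell (-1.98 ± 0.20). Of the endothelial markers, *CDH5* rose in shD3 #4 (1.64 ± 0.40) and deep shD3 #1 (1.21 ± 0.36) and *KDR* in siD3 #3, from 0.0545 to 0.614 cpm. In shD3 #1 *CD79A*, in shD3 #4 *CDH5* and in deep shD3 #1 *LYZ* had under 10 counts in each control. In siD3 #3 the same held for *CD79A*, *LUM* and *KDR*. In deep shD3 #1 *LUM* had 1, 13 and 4 counts in the controls. All of these genes passed the filter in the comparisons named through the knockdown libraries, so that these changes are a description. *PTPRC* was at or near 0 beside each of the changes of this paragraph. The part of these markers in the cytokine values was not tested.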

How the data were processed

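The deposited values in both tables are counts of reads per gene, which the authors made by trimming with Trimmomatic 0.40, alignment to GRCh38.p14 with STAR 2.7.10a and its gene counting option, after ribosomal RNA depletion and a directional library protocol. The tables are not normalised. The first lists Ensembl identifiers, of which 61757 of 61806 received a symbol from GENCODE release 44, and the second lists symbols; the strand setting is not given in the sources used here.

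Counts were TMM-normalised and filtered with filterByExpr, and the quasi-likelihood test of edgeR 4.0.16 under R 4.3.3 was run for every knockdown against its control group, with Benjamini-Hochberg adjustment over all genes tested. Standard errors were the log2 fold change divided by the root of F. Differences between knockdowns were contrasts in 1 model of 17 libraries. cpm are TMM-normalised counts scaled to library size within a comparison, and per kb values used the exon union of GENCODE. Alternatives were DESeq2 1.42.0, its size factors in edgeR, no filter, at least 10 counts in every library, a log2 threshold of 1, glmTreat, the replicate block, 1 fit of 17 libraries and each library left out. The steps were tested on simulated data. Figures and sequence counts used python 3.11.15, pandas 2.3.3, scipy 1.17.1, biopython 1.88 and matplotlib 3.10.9.

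The genes and lists were chosen with earlier results of these data known. Named genes were the 10 members, *THUMPD3*, and from each other list the called gene with the highest and with the lowest log2 fold change in each comparison, those called in the same direction in all 3 first knockdowns, and the 2 genes most alike to each of the 3 most abundant members. *CXCR1*, *CXCR2*, *CCR2*, *CCR6*, *CCL5*, *CCL28*, *IL23A*, *TNIP3*, *PIM1*, *CEBPD*, *FGA*, *CDKN2A*, *SAA2*, *KRT8*, *KRT18*, *PTPRC* and *DCN* were added after their values were seen. *SOD2* was not matched in the first table. p-values measure the spread between libraries of a group. Depth ranged from 9854294 to 59974740 counts.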

Additional observations from a re-analysis of the deposited data

Results flagged for a closer look

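Effects of 1 knockdown that differed from those of another, in the model of the 17 first libraries, are given as differences of log2 fold changes. Between shD3 #1 and shD3 #4 they were 3.55 for *CXCL8*, 1.67 for *CCL2*, 1.27 for *IL11*, -0.65 for *CXCL2* and -1.87 for *CXCL5*. Between siD3 #3 and shD3 #1 they were 2.33 for *CXCL1*, 1.46 for *CXCL2*, 1.44 for *CXCL5*, -0.71 for *IL11* and 4.45 for *CCL20*. Between siD3 #3 and shD3 #4 they were 3.43 for *CXCL8*, 1.84 for *CCL2*, 1.77 for *CXCL1*, 0.81 for *CXCL2*, 6.36 for *IL6* and 7.66 for *IL1A*. The fitted values of *CCL20*, *IL6* and *IL1A* rest on groups with few or 0 counts and are no measure of size. Of the 17 fits that left out 1 library, the call was kept in 13 for *CCL20*, 5 for *IL6* and 9 for *IL1A*, and also in 10 for *CXCL2* between the shRNAs, 2 for *IL11* between siD3 #3 and shD3 #1 and 16 for *CXCL2* between siD3 #3 and shD3 #4.

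*IL6* was lower in every deep shD3 #1 library than in every deep control, with a log2 fold change of -0.71, and higher in every first shD3 #1 library than in every first control, at 2, 0 and 0 against 5, 3 and 3 counts. This difference was not tested.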

How the results depend on the processing

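Numbers of genes called out of the 10, under each alternative, were within 1.5 times of those above except as follows. With a log2 fold change threshold of 1 they were 2 in shD3 #4 and 2 in deep shD3 #1. With at least 10 counts in every library they were 3 in siD3 #3, since *IL6*, *IL1A* and *CCL20* were then not tested, and 3 for the difference between siD3 #3 and shD3 #1, where *IL11* was not called and *CCL20* not tested. With glmTreat the number was 3 in siD3 #3. With 1 library left out the numbers were 5 in shD3 #1, 4 in shD3 #4, 4 to 7 in siD3 #3 and 5 to 7 in deep shD3 #1. For the differences they were 4 to 6 (shD3 #1 and shD3 #4), 3 to 5 (siD3 #3 and shD3 #1) and 4 to 6 (siD3 #3 and shD3 #4). The number for siD3 #3 and shD3 #1 was 3 without siControl library 2, sh1Control library 2, or shD3 #1 library 2 or 3, with *CCL20* and *IL11* lost each time.

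Some fold changes and differences that were not called changed sign. *LIF* in shD3 #1 was -0.011 without the filter, -0.0069 with at least 10 counts and -0.013 in 1 fit of all 17 libraries, and -0.021 to 0.046 with 1 library left out. With 1 library left out in siD3 #3, *CXCL5* was -0.95 to 0.075 and *LIF* -0.18 to 0.057. The differences between siD3 #3 and shD3 #1 were then -0.53 to 0.45 for *CXCL8*, -0.18 to 0.051 for *LIF* and -2.26 to 0.85 for *IL6*. *CXCL5* between siD3 #3 and shD3 #4 was -0.87 to 0.15, and *CCL20* between shD3 #1 and shD3 #4 was -1.41 to 0.57. The ends of the siRNA ranges for *CXCL5*, *LIF* and *CXCL8* were the fits without siControl library 1 or 2, and the cause was not tested.

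Replicates of the compared groups share numbers, which were not taken as pairs. In the shRNA and deep comparisons same-numbered libraries did not deviate together (correlations of -0.078 to 0.074). In the siRNA comparison the 2 siControl libraries deviate from their mean as mirror images, so that its correlations cannot decide whether the numbers are pairs. With the replicate block 5, 4, 7 and 6 genes were called in the shD3 #1, shD3 #4, siD3 #3 and deep comparisons, and *IL6* between siD3 #3 and shD3 #1 was -0.41. In siD3 #3 *IL11* was then called lower, at -1.06, as it was without the filter and in 1 fit of all 17 libraries.

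Over all genes, a threshold of 1 or glmTreat lowered the number called in every comparison. The threshold gave 2280, 718, 2125 and 2878 genes in the shD3 #1, shD3 #4, siD3 #3 and deep comparisons, and glmTreat 2751, 682, 1670 and 3356, where 4785, 2061, 3739 and 5461 were called above. For the differences the threshold gave 2580, 2641 and 1891 genes where 4841, 4734 and 3324 were called. The first libraries hold too few counts of *IL6*, *IL1A* and *CCL20* to measure a fall.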
